A study of Mus musculus with 8 samples.

Results

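Regenerative-type organoid cells were the barcodes of 2 mouse small intestinal organoid libraries in which the transcripts of Ly6d, Clu, Anxa1 and Sprr1a together made up at least 5 of every 10000 UMIs. A UMI (unique molecular identifier) stands for 1 captured RNA molecule, and a barcode stands for 1 droplet, taken as 1 cell. Members were chosen by these measured values among barcodes with at least 500 detected genes and at most 20% of UMIs from mitochondrial (mt-) genes. The rule found 126 members among 1577 kept organoid barcodes, 91 of 540 in the control library and 35 of 1037 in the coculture library. The 1451 remaining kept barcodes are called the other barcodes. Such a set is a range cut from a score along the epithelium, not a cell type with a natural border.

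The study asked how lymphatic vessels and intestinal stem cells act on each other. Both organoid libraries were labelled C57BL/6, small intestine and passage 1, and differed by treatment, CTRL for organoids grown alone and COCULTURE for organoids grown with a partner that the labels do not name. For each culture, 16 wells were pooled and 100000 epithelial cells were sorted before droplet sequencing of RNA, and the submitters state that the sorted control and coculture samples were pooled for submission. The 2 deposited matrices shared 0 barcodes. The number of mice is not given in the labels. Each condition was 1 library, so no difference between conditions has a replicate check, and culture, sort and library cannot be told apart. All intervals below are 95% intervals that cover counting error only.

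After injury the intestinal lining can pass through a state that resembles fetal epithelium, in which genes of the normal stem cell program are low and genes such as Ly6a, Clu, Anxa1 and several annexins are high. This state is tied to YAP/TEAD signalling, which reads mechanical tension and cell contact, and organoids grown from single cells or crypts pass through it while they form. Among the 4 genes of the rule, Clu encodes the secreted chaperone clusterin, Anxa1 a phospholipid-binding annexin that dampens inflammation, Ly6d a lipid-anchored surface protein, and Sprr1a a small proline-rich protein of the cornified envelope of stratified epithelia.

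Sequence from RefSeq (GRCm38.p6) upstream of the transcription start is shown for the members' genes that the results below turn on: 2 genes of the rule, and 4 of the genes highest in members whose upstream sequence holds the AP-1 motif. Each run is the 250 bases before an annotated start, written 5′ to 3′ in the direction of the gene. Capitals mark the AP-1 motif TGANTCA or the TEAD motif GGAATG, searched on both strands, with no overlap between them here.
Sprr1a, chr3:92485882-92486131, minus strand: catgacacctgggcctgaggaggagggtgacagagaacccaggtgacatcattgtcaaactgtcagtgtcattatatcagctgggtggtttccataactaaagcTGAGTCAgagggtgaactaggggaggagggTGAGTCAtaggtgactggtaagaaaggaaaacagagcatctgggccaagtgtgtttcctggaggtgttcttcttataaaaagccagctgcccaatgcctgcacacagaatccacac
Anxa1, chr19:20390672-20390921, minus strand: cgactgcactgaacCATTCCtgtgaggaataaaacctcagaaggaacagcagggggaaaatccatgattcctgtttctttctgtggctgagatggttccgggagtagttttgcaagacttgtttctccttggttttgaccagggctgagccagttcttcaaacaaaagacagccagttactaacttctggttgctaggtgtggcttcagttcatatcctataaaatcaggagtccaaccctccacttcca
Il1rn, chr2:24336610-24336859, plus strand: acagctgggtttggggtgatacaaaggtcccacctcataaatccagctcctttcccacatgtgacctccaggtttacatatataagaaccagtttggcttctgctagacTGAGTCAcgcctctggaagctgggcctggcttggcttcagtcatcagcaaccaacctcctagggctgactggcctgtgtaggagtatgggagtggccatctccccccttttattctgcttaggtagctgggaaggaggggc
Sprr2f, chr3:92364937-92365186, plus strand: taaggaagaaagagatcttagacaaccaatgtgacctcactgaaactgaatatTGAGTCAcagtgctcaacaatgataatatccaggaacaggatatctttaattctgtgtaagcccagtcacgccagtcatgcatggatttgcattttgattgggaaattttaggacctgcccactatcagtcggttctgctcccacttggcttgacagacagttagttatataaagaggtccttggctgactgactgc
Serpinb5, chr1:106860925-106861174, plus strand: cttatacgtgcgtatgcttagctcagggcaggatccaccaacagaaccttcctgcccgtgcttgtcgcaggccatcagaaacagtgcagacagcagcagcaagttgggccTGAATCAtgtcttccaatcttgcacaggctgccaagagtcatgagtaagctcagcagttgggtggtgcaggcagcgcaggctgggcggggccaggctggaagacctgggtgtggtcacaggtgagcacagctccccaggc
Plaur, chr7:24462233-24462482, plus strand: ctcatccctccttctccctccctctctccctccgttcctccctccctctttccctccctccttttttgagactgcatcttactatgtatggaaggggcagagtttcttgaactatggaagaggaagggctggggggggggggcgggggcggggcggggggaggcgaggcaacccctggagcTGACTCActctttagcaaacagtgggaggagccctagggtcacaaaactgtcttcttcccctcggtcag
Sprr1a had 2 AP-1 matches, which began 146 and 116 bases before the start. Anxa1 had a TEAD match 236 bases before its start and no AP-1 match. Il1rn has 3 annotated starts in the table, of which the first is shown, with an AP-1 match 141 bases before it. Of 19 genes looked up (the 4 of the rule and the 15 named below as highest in members), 11 had an upstream sequence, of which 5 had an AP-1 match and 2 a TEAD match, Anxa1 and the third start of Il1rn. Over all 27025 genes with an upstream sequence, 7.82% had an AP-1 match and 14.4% a TEAD match, and over the 8180 of these compared between members and other barcodes 5.38% and 12.5%. Of the 708 such genes at least 2-fold higher in members of both libraries, 9.75% had an AP-1 match and 15.1% a TEAD match, beside 4.64% and 13.0% of the 2049 lower ones. A match is a description of these letters, not a binding site.

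Members were a larger share of the control library. They made up 16.9% of control barcodes (exact Clopper-Pearson interval 13.8% to 20.3%) and 3.38% of coculture barcodes (2.36% to 4.66%), a difference of -13.5 percentage points (counting interval -17.1 to -10.2). In control members the summed level of the 4 genes was 5.14 UMIs per 10000 at the lowest, 18.8 at the median and 370 at the highest. In coculture members it was 5.27, 18.0 and 163. The lower end is set by the rule, and the upper end was higher in control. By contrast, 254 of 540 control and 806 of 1037 coculture barcodes had 0 UMIs of all 4 genes. Few barcodes lay right at the threshold: 2 control and 2 coculture members were between 5 and 6 UMIs per 10000, and 5 and 2 other barcodes between 4 and 5. More lay somewhat farther out, 22 control and 9 coculture members between 6 and 10, and 24 and 19 other barcodes between 2 and 4. The nearest member inside was at 5.14 in control and 5.27 in coculture, and the nearest barcode outside at 4.94 and 4.59.

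**Figure D1:**
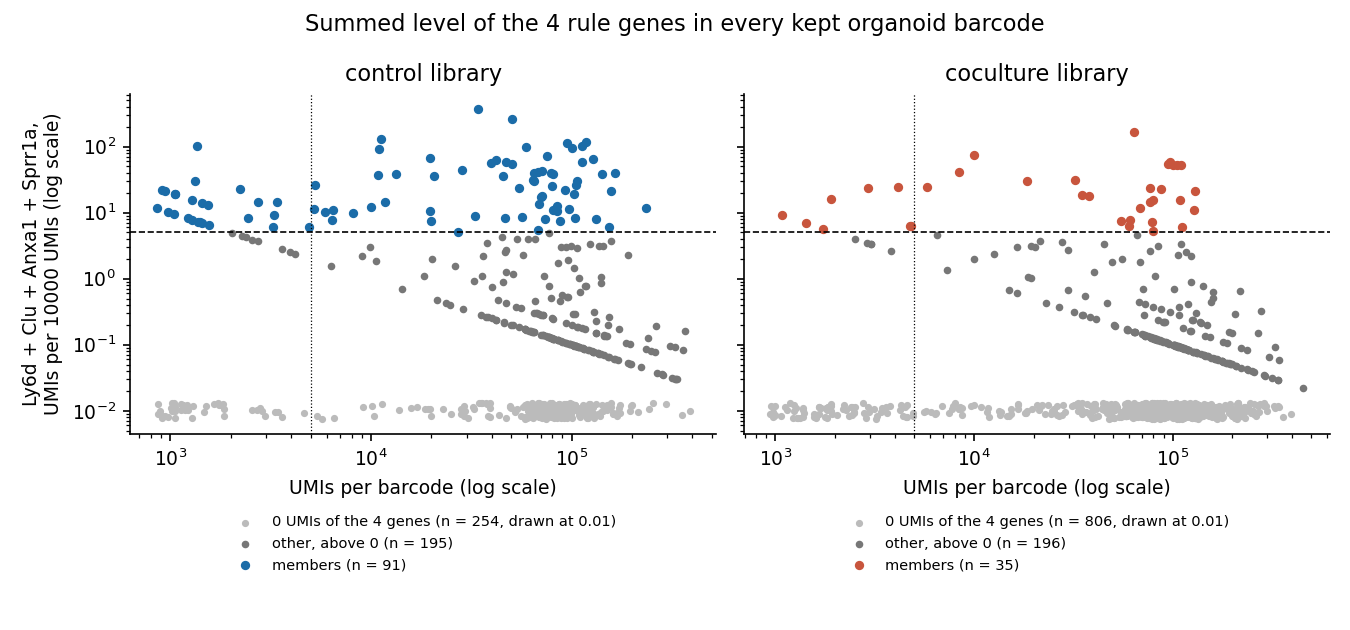
Each point is 1 kept barcode, placed by its UMIs (x, log scale) and by the summed level of Ly6d, Clu, Anxa1 and Sprr1a in UMIs per 10000 (y, log scale), with barcodes at 0 drawn at 0.01. The dashed line is the threshold of 5 and the dotted line 5000 UMIs, and 91 control and 35 coculture members lie on or above the threshold.

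Members were shallower than the other barcodes. The median was 39409 UMIs in control members and 77943 in other control barcodes, and 61134 and 86906 in coculture. Under 5000 UMIs, where 3 molecules can reach the threshold, lay 25 of 91 control and 8 of 35 coculture members, beside 50 of 449 and 79 of 1002 other barcodes. Fewer than 10 UMIs of the rule genes placed 29 control and 7 coculture members, and the lowest count in a member was 1 UMI in each library. With each barcode thinned to 10000 UMIs the shares were 13.7% of 452 control and 2.69% of 928 coculture barcodes, and among barcodes with at least 5000 UMIs 14.2% and 2.84%. The filters on barcodes removed further barcodes that met the threshold, 53 of 278 in control and 4 of 196 in coculture; with no filter the shares were 17.6% and 3.16%.

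Each of the 4 genes was seen in only some members. Ly6d had UMIs in 63 of 91 control and 18 of 35 coculture members, at a lowest, median and highest level of 0, 3.07 and 88.1 UMIs per 10000 in control and 0, 0.261 and 50.4 in coculture. Sprr1a had UMIs in 57 control members (0, 0.981 and 148) and 31 coculture members (0, 7.70 and 162). Anxa1 had UMIs in 61 control members (0, 3.07 and 29.6) and 13 coculture members (0, 0 and 5.26). Clu had UMIs in 50 control members (0, 0.127 and 366) but in 2 coculture members, with 6 UMIs in all and a highest level of 0.400. The 4 genes thus entered the set through different members, and coculture members met the rule almost wholly through Ly6d and Sprr1a. Among control members the leading gene was Ly6d in 30, Clu in 19, Sprr1a in 18 and Anxa1 in 17, with 7 ties. Among coculture members it was Sprr1a in 23 and Ly6d in 11, with 1 tie and none led by Clu or Anxa1. All 4 genes were seen in 29 of 91 control members and 1 of 35 coculture members.

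**Figure D2:**
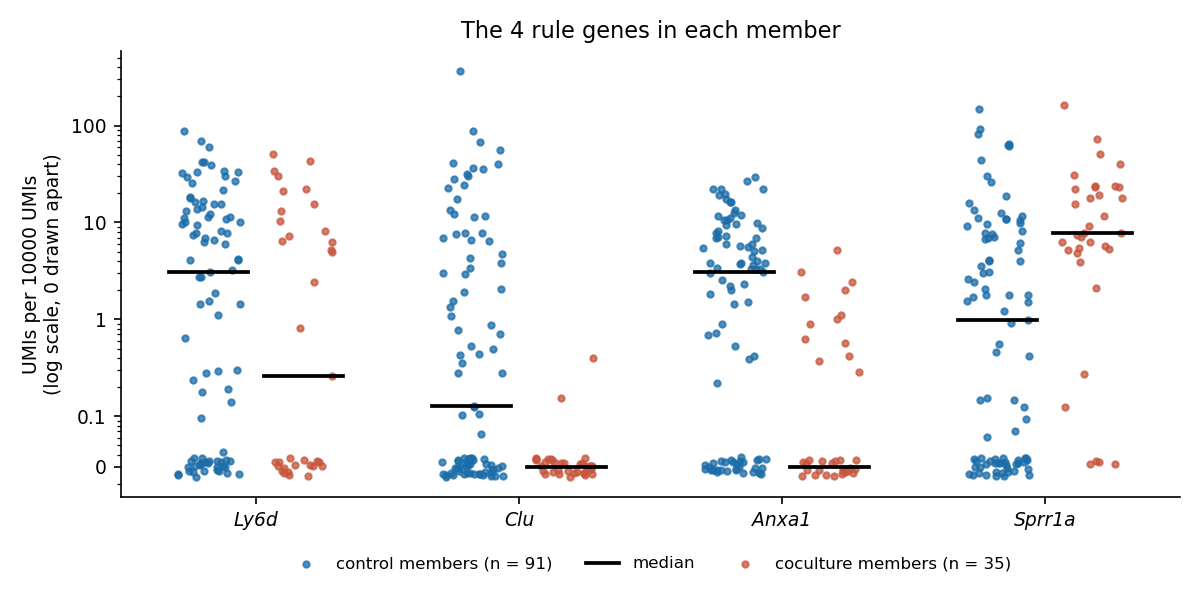
Each point is 1 member (91 control, 35 coculture), with its level of each rule gene in UMIs per 10000 on a log scale (values of 0 drawn apart at the bottom), and black bars are medians. Sprr1a is above 0 in 31 of 35 coculture members and Clu in 2.

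A few members held much of each gene. In control, 1 member held 27.0% of all member UMIs of Clu and 4 members held 50% of them. For Sprr1a in coculture, 1 member held 32.2%, and for Ly6d 1 member held 21.2%. Within members of at least 5000 UMIs, Spearman's rho between pairs of rule genes ran from -0.02 (Clu with Sprr1a) to 0.27 (Clu with Anxa1) over 66 control members, and over 27 coculture members from -0.47 (Ly6d with Sprr1a) to 0.38 (Ly6d with Clu, which was seen in 2 of them). These are descriptions of members that were chosen on the sum of the same genes, which share a library and a depth.

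A rule gene could be followed in barcodes that it had not helped to choose. When members were chosen by the 3 other genes, the left-out gene was still higher in them than in the other barcodes of the same library. In control the log2 ratio of pooled levels was 5.15 for Ly6d (counting interval 5.06 to 5.23), 5.47 for Sprr1a (5.37 to 5.57), 5.07 for Anxa1 (4.95 to 5.19) and 3.81 for Clu (3.73 to 3.89). In coculture it was 6.01 for Ly6d (5.90 to 6.12), 5.37 for Sprr1a (5.26 to 5.47), 4.94 for Anxa1 (4.54 to 5.33) and 2.57 for Clu (1.06 to 3.79). The left-out Clu was seen in 49.4% of 81 control members so chosen, against 18.1% of the rest, and in 2 of 35 coculture members against 18 of 1002. The control value for Clu was 6.55 with a threshold of 2 UMIs per 10000 and 2.03 as a mean over barcodes.

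UMIs of the rule genes were also seen in some barcodes outside the set. At 10000 UMIs per barcode, Ly6d was seen in 68.3% of 60 control members (83.3% unthinned), in 5.36% of 392 other barcodes (18.4% unthinned) and in 2.63% of the 38 other barcodes highest in enterocyte genes (13.2% unthinned). The median depths before thinning were 69672, 85602 and 72225 UMIs. Clu in coculture was seen in 4.17% of 24 members and 0.442% of 904 other barcodes at this depth, and in 0 of 89 enterocyte-high barcodes. That is 1 member, and the pooled level of Clu in coculture members rests on 6 UMIs in 2 members. Defa24, a Paneth cell defensin, was seen in 94.5% of control members and 97.1% of other control barcodes, at 113 against 3453 CPM (UMIs per 1000000 UMIs).

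Members also resembled each other without the rule genes. Over the 2000 most variable genes with the 4 rule genes left out, 66.7% of the 15 nearest neighbours of a control member were members, which made up 14.2% of the barcodes of at least 5000 UMIs. In coculture the share was 47.7%, against 2.84% of barcodes. In coculture 2 of 27 members had no member among their neighbours, and in control none of 66.

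Across all genes, members differed from the other barcodes in much the same way in both libraries. Pooled levels are given as CPM, over the summed UMIs of all barcodes of a group, and a gene was called when the groups differed at least 2-fold. Of 10277 genes with at least 100 UMIs in each library, 903 (8.79%) were higher in members of both libraries and 2543 (24.7%) lower. In control alone 12% of 10336 genes were higher and 29.7% lower, and in coculture 11.7% of 11154 higher and 32.8% lower. Genes called in opposite directions were few, 8 (0.0778%) higher in control and lower in coculture and 6 (0.0584%) the reverse. The median log2 ratio of all genes was -0.34 in control and -0.45 in coculture, and turned to 0.081 and 0.28 with no filter on low genes. These ratios come from the barcodes that the rule chose, so they describe the members and test nothing.

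**Figure D3:**
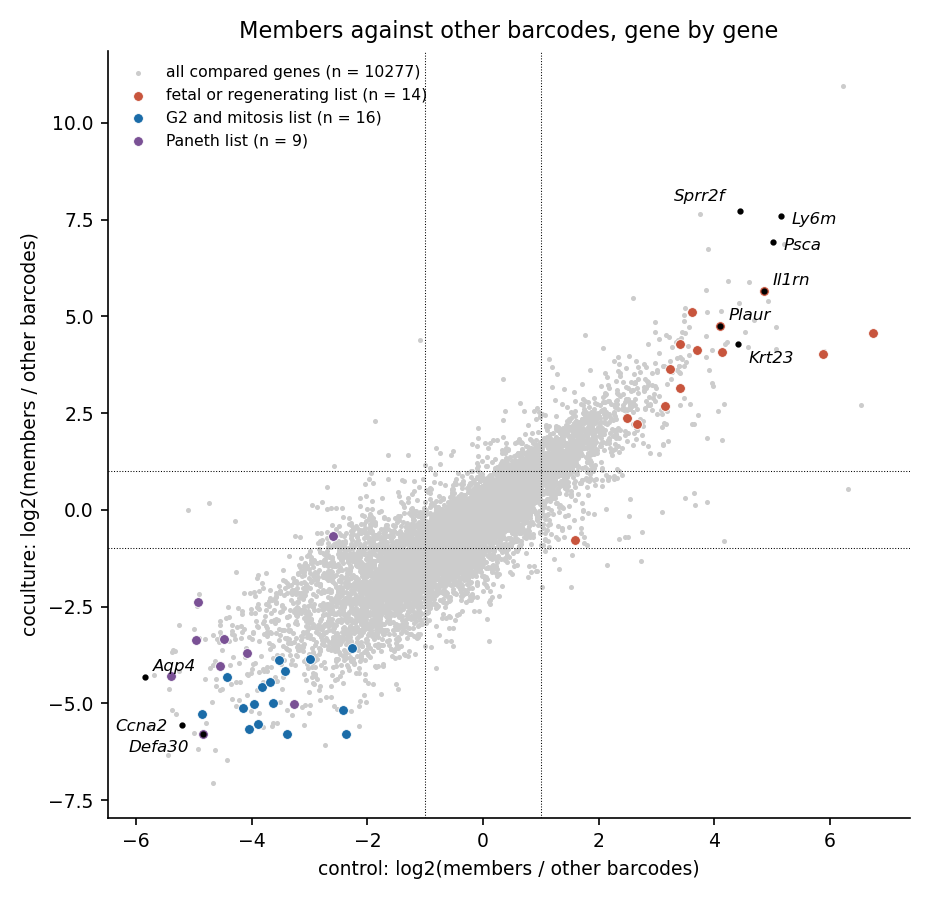
Each grey point is 1 of 10277 genes, placed by its log2 ratio of members over other barcodes in control (x) and coculture (y), with dotted lines at 2-fold. The fetal or regenerating list (13 of 14 genes higher in both) lies at the upper right, and the G2 and mitosis list (16 of 16 lower in both) and the Paneth list (8 of 9 lower) at the lower left.

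Genes of fetal or regenerating epithelium outside the rule were higher in members of both libraries, although Clu itself was near 0 in coculture members. Of 14 genes compared in both libraries, 13 were higher in both, where 8.79% of all genes were, and the list's median log2 ratio was 3.51 in control and 4.05 in coculture. Ly6a, which encodes the surface antigen Sca-1 of regenerating crypts, had 583 CPM in control members and 33.2 in other barcodes, and 401 and 23.9 in coculture. F3, the tissue factor that starts coagulation, had 1124 and 19.1 CPM in control and 128 and 7.82 in coculture. Anxa10, an annexin of gastric and fetal-type epithelium, had 549 and 44.8 CPM in control and 288 and 8.36 in coculture. The calcium-binding S100a6 and S100a11 reached 9338 and 4429 CPM in control members. Cd44, a hyaluronan receptor, was the exception, with a log2 ratio of 1.59 in control and -0.78 in coculture, where members had 15 UMIs. Summed over the list, the level of control members with at least 5000 UMIs had a median of 187 UMIs per 10000, and 61 of 66 such members lay above the 90th percentile of the other barcodes. In coculture the median was 105 and 25 of 27 members did.

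Targets of YAP/TEAD were mostly higher, while the regulators themselves were mixed. Of 11 targets compared in both libraries 8 were higher and 1 lower, where 8.79% and 24.7% of all genes were. The target medians were 2.67 in control and 2.61 in coculture. Myof, a membrane repair protein, had a log2 ratio of 4.17 in control and 2.73 in coculture, and Amotl2, a junctional scaffold that restrains YAP, 2.79 and 2.61. Ccn1, a secreted matrix protein, had -0.33 and -0.91. Of 6 regulators, Tead1 (1.21 and 1.5) and the kinase gene Lats2 (2.67 and 3.02) were higher, Vgll4, a TEAD repressor, was lower (-1.54 and -1.95), and Yap1 itself had 0.16 and -0.18. With so few regulators these calls are not read as a shift. The lists are not separate: Lats2 is among both regulators and targets, and F3 among both targets and fetal or regenerating genes.

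Simple epithelial keratins were higher together, and of the squamous list the Sprr2 genes and Sfn. All 6 simple epithelial keratins compared were higher in both libraries (median log2 ratio 2.74 and 2.75). Krt20, a keratin of surface epithelium, had a lowest, median and highest level of 0, 5.68 and 50.1 UMIs per 10000 in control members and 0, 7.06 and 35.5 in coculture members, where the other barcodes had medians of 0.278 and 0.243. Its range overlapped that of the other barcodes, whose highest levels were 48.9 and 35.7. Krt20 was also common in the other barcodes highest in enterocyte genes, at 10000 UMIs in 94.7% of 38 such control barcodes and 96.7% of 60 members, and pooled at 699 CPM against 1402. Of 19 squamous genes only 5 could be compared in both libraries, Sfn and 4 Sprr2 genes that lie near the rule gene Sprr1a, and these 5 were higher (list medians 2.57 over 7 genes in control and 2.71 over 5 in coculture). Sprr2a1, Sprr2a2 and Sprr2a3 are near-identical copies whose counts cannot be assigned with certainty. Of the other 14, Dsg3, a desmosomal cadherin, and Cnfn, a cornified envelope protein, were compared in control alone (4.59 and 5.91), and the rest had too few UMIs. In members 10 of the 19 were at 0 UMIs in control and 11 in coculture, among them in both the squamous keratin gene Krt14 and the squamous regulator Trp63.

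Adhesion, cytoskeleton and growth factor genes followed. Among integrin, laminin-332 and hemidesmosome genes 6 of 12 were higher in both libraries and none lower. Lamb3, the laminin-332 beta 3 chain, had 136 CPM in control members and 28.6 in other barcodes, and 57.1 and 19.8 in coculture. Of 11 actin and caveola genes 6 were higher and none lower, with Ahnak, a large scaffold of the cell cortex, at log2 ratios of 3.51 and 3.83. In control alone 10 of 13 genes of this list were higher and 1 lower, and in coculture alone 6 of 11 were higher. Among EGF family ligands, receptors and feedback genes 7 of 8 were higher and none lower. Areg, the ligand amphiregulin, had UMIs in 77 of 91 control members (0, 16.4 and 98.7 UMIs per 10000) and 33 of 35 coculture members (0, 12.1 and 94.0), against medians of 0.248 and 0.158 in the other barcodes. The receptor gene Egfr had log2 ratios of 2.96 and 2.98, the ligand gene Btc 2.78 and 3.09, and the feedback inhibitor gene Errfi1 1.79 and 2.53.

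Several stress programs were also higher, while the antioxidant list was mixed. Of 15 hypoxia and glycolysis genes 10 were higher in both libraries and none lower; Slc2a1, the glucose transporter GLUT1, had log2 ratios of 2.47 and 3.17 and Ndrg1, a hypoxia-induced gene, 2.55 and 3.06. Of 8 integrated stress response genes 5 were higher, among them the transcription factor genes Ddit3 (2.64 and 3.85) and Atf3 (2.47 and 3.66); 1 coculture member held 51.7% of the member UMIs of Ddit3. Both Ndrg1 and Ddit3 were also common in the other barcodes highest in enterocyte genes. At 10000 UMIs Ndrg1 was seen in 84.2% of 38 such control barcodes and 86.7% of 60 members (100% and 96.7% unthinned), pooled at 345 and 1074 CPM, and in 87.6% of 89 and 100% of 24 in coculture (98.9% and 100% unthinned), at 357 and 1383 CPM. Ddit3 was seen in 42.1% and 58.3% in control (84.2% and 86.7% unthinned), at 80.8 and 218 CPM, and in 53.9% and 75% in coculture (89.9% and 100% unthinned), at 129 and 573 CPM. Of 10 p53 targets 5 were higher, including the cell cycle inhibitor gene Cdkn1a (1.87 and 2.17). The level of Cdkn1a in members, 662 CPM in control and 1115 in coculture, lay near that of the other barcodes highest in enterocyte genes, 613 and 782 CPM. Of 5 interferon response genes 4 were higher, with the ubiquitin-like modifier gene Isg15 at 97.2 CPM in control members and 328 in coculture members. The other barcodes highest in enterocyte genes had Isg15 at 62.5 and 84.2 CPM. At 10000 UMIs it was seen in 43.3% of 60 control members and 21.1% of 38 such barcodes (58.3% and 44.7% unthinned), and in 37.5% of 24 coculture members and 29.2% of 89 (62.5% and 58.4% unthinned), with overlapping counting intervals in both libraries. Of 10 immediate-early and heat shock genes 5 were higher, led by the AP-1 subunit gene Fosl1 (3.34 and 4.33). Of 8 antioxidant genes 3 (37.5%) were higher in both libraries and 2 (25%) lower, where 8.79% and 24.7% of all genes were. The list's median log2 ratio was 0.62 in control and 0.13 in coculture (-0.042 in CPM without mt- and ribosomal protein genes), beside -0.34 and -0.45 for all genes (0.081 and 0.28 with no filter on low genes, so the coculture median was then below that of all genes). The summed level of the list ran the other way, with medians in members and other barcodes of 7.17 against 16.5 UMIs per 10000 in control and 5.47 against 16.1 in coculture. Hmox1, heme oxygenase, was at 3.97 and 4.13 and Gpx2, a glutathione peroxidase of the crypt, at -2.16 and -3.50. Median mitochondrial shares were 5.45% in control members and 6.35% in other control barcodes, and 5.15% and 5.70% in coculture. Members were also shallower, and the part of depth in these values was not tested. Among barcodes of at least 5000 UMIs each of the 44 list medians stayed within 1.5-fold of its value over all barcodes. Pooled ratios give little weight to shallow barcodes, so this cannot show an effect of depth.

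**Figure D4:**
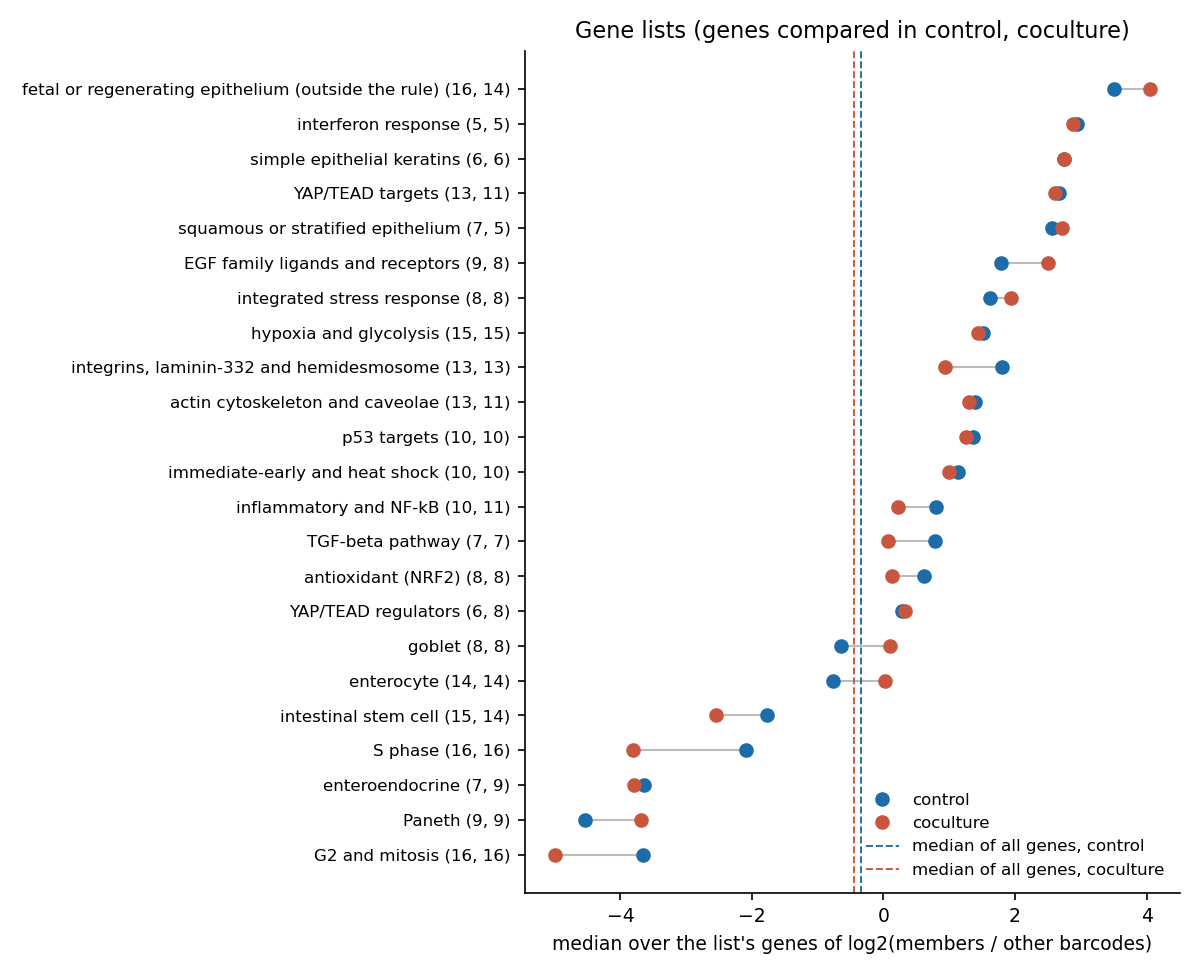
Each row is a gene list with at least 5 compared genes in each library (numbers in brackets: genes compared in control, in coculture), and points give the median log2 ratio of members over other barcodes. Dashed lines mark the median of all genes, -0.34 in control and -0.45 in coculture; the fetal or regenerating list lies farthest to the right.

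Proliferation and stem cell genes were low in members. All 16 G2 and mitosis genes and 14 of 16 S phase genes were lower in both libraries, where 24.7% of all genes were. The median log2 ratio was -3.65 in control and -5.0 in coculture for G2 and mitosis, and -2.09 and -3.82 for S phase. How far they were lower in coculture rested on the threshold: with 2 UMIs per 10000 the medians were -3.47 in control and -2.57 in coculture for G2 and mitosis, and -1.94 and -1.67 for S phase, so coculture was then no longer the lower one. Mki67, a marker of cycling cells, was seen at 10000 UMIs in 3 of 60 control members (11.7% unthinned) and 44.9% of 392 other barcodes (65.1% unthinned), and in coculture in 0 of 24 members (12.5% unthinned) and 41.2% of 904 others (62.4% unthinned). The other barcodes highest in enterocyte genes had Mki67 as seldom, in 5.26% of 38 in control and 1.12% of 89 in coculture, and pooled at 1.66 and 1.37 CPM against 13.3 and 4.63 in members, so a low level was shared with them. In control, 4 of 66 members exceeded the median G2 and mitosis level of the other barcodes, and in coculture 0 of 27. Of 14 stem cell genes 10 were lower in both libraries and none higher. Axin2, a Wnt feedback gene, had 5.41 CPM in control members and 44.8 in other barcodes, and 1 UMI in coculture members. Olfm4, a crypt base marker, had 14.7 and 174 CPM in control, and 3 UMIs in coculture members, 1.54 CPM against 70.8. At 10000 UMIs Olfm4 was seen in 6.67% of control members and 26.3% of other barcodes, and in 4.17% and 17.3% in coculture. The enterocyte-high barcodes had it as seldom, in 0 of 38 in control and 1.12% of 89 in coculture. Lgr5, a marker gene of crypt stem cells, had 0.902 CPM (4 UMIs) in control members and 7.03 in other barcodes. In coculture it had 0 UMIs in members, where other barcodes had 1.42 CPM. That is below the 1.54 CPM that 3 UMIs would give in coculture members, so no ratio is given. Lgr5 had 0 UMIs in the enterocyte-high barcodes of both libraries as well. At 10000 UMIs Lgr5 was seen in 3.33% of control members (0.406% to 11.5%) and 6.12% of other control barcodes (3.96% to 8.97%). These counting intervals overlapped. Ascl2, a stem cell transcription factor gene, had 0 UMIs in coculture members and was at least 8.11-fold lower, with 3 UMIs taken as the floor over the group.

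Differentiated lineages were low or mixed. Pooled Paneth genes were lower (8 of 9 in both libraries, medians -4.54 and -3.69). The typical barcode did not show this: the median summed Paneth level was 3.01 UMIs per 10000 in control members and 2.45 in other barcodes, and 1.81 and 1.67 in coculture, while single other barcodes reached 4443 and 6672. As a mean over barcodes the list medians were -1.81 and -1.44. With a threshold of 2 UMIs per 10000 the control median was -0.55, near that of all genes, and Defa30, a defensin gene, turned to 0.77 in control, while the coculture median was -4.25. All 6 enteroendocrine genes compared were lower in pooled levels, where members held 43 UMIs of the list in control and 42 in coculture. Goblet genes had 0 of 8 called alike in both libraries, and rested on few members. Zg16, a secreted lectin, had a log2 ratio of 3.88 in control, where 1 member held 98.5% of its member UMIs, and 0.20 in coculture, and Agr2, a secretory disulfide isomerase, had -5.10 and -0.01. Of 14 enterocyte genes 2 (14.3%) were higher and 4 (28.6%) lower in both libraries, near the 8.79% and 24.7% of all genes, so nothing is read from these counts. The higher ones were Apoa4 (1.45 and 2.65) and Apob (1.5 and 1.46), which encode lipoproteins of fat absorption, and the lower ones were Sis, the sucrase-isomaltase gene (-3.24 and -1.83), Lct, lactase (0 UMIs in control members, at least 18.9-fold lower, and -2.55), Fabp2, a fatty acid carrier (-1.82 and -1.74), and Slc5a1, the glucose transporter SGLT1 (-2.15 and -1.29). Summed over barcodes of at least 5000 UMIs, enterocyte genes had a median level of 30.1 UMIs per 10000 in control members and 26.3 in other barcodes, and 117 and 43.9 in coculture.

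Among smaller lists, 2 of 7 TGF-beta and 3 of 10 inflammatory genes were higher in both libraries and 1 and 2 lower, beside 8.79% and 24.7% of all genes, and none of 3 prostaglandin genes was called in both. With so few genes these counts are not read as a shift of either list. The chemokine gene Cxcl16 had log2 ratios of 3.19 and 2.54. Too few genes of the tuft (0), stomach (0) and M cell (2) lists could be compared in both libraries. Markers of other tissues were near 0. Members had 1 UMI of 7 fibroblast genes in control and 0 in coculture, and 8 and 2 UMIs of 6 immune genes, all of Itgam. Of 8 endothelial genes they had 7 UMIs in control (summed level 0 to 6.95 UMIs per 10000 in members, 0 to 19.5 in others) and 4 in coculture (0 to 1.00 and 0 to 7.88). The 4 in coculture were of Lyve1, and Pecam1, Cdh5, Kdr, Prox1 and Flt4 were at 0 there. Msln, mesothelin, which is shared by mesothelium and fetal-type epithelium, was the sole one of 5 mesothelial genes compared in both libraries, with 865 UMIs in control and 42 in coculture members. The epithelial adhesion gene Epcam had UMIs in 96.7% of control members and 96.9% of other control barcodes.

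The 15 genes with the highest ratio in both libraries, outside the 4 chosen genes and by the naming rule given with the processing, were Ly6m, Psca, Lynx1, Il1rn, Rbpms, Nbl1, Bmp8b, Ada, Sprr2f, Serpinb5, Krt23, Epn3, Plat, Bdh2 and Plaur. Il1rn, the secreted antagonist of the interleukin-1 receptor, had UMIs in 64 of 91 control members and 81 of 449 other barcodes, with 372 against 12.9 CPM and a log2 ratio of 4.85 (4.71 to 5.0). In coculture it had UMIs in 17 of 35 members and 80 of 1002 others, with 198 against 3.95 CPM and a ratio of 5.64 (5.44 to 5.85). Plaur, the urokinase receptor, and Plat, tissue plasminogen activator, both parts of the system that dissolves fibrin, had ratios of 4.09 and 4.74, and of 4.58 and 4.2. Krt23, a type I keratin, was seen in 68 of 91 control and 26 of 35 coculture members, at a median of 2.98 and 2.20 UMIs per 10000. Ada, adenosine deaminase, reached 1440 CPM in control members but was unevenly spread, with a median of 0.253 and a highest level of 190 UMIs per 10000. Its other barcodes reached 194, so the groups overlapped in range.

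The 15 lowest included Ccna2, Plk1, Hmmr, Knl1 and Cdc20 of mitosis and the replication-dependent histone genes Hist1h1b and Hist1h3c. Ccna2, cyclin A2, had UMIs in 5 of 91 control members and 242 of 449 other barcodes (2.03 against 74.7 CPM), and in 3 of 35 coculture members and 540 of 1002 others (1.54 against 73.2 CPM). Knl1, a kinetochore protein gene, had 0 UMIs in coculture members and was at least 22.8-fold lower at the floor of 3 UMIs over the group, with an upper limit of the counting interval of -4.21 on the log2 scale. The water channel genes Aqp1 and Aqp4 were also among them, with Aqp1 at 2.25 CPM in control members and 45.8 in others.

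Genes beside Ly6d and beside Sprr1a on the chromosome were high with them. Ly6d lies on chromosome 15 at 74762056 to 74763567 (GRCm38.p6), in a cluster of genes for Ly6 family surface proteins. Of 25 protein-coding genes within 500000 bases, 9 were compared in both libraries and 6 were higher in both (8.79% of all genes were): Psca, Lynx1, Gml, Gml2, Ly6m and Ly6a. Psca, 44991 bases from Ly6d, had 536 CPM in control members and 16.7 in other barcodes, and Ly6m, 114769 bases away, 421 and 11.9. Their log2 ratios were 5.01 and 5.15 in control and 6.92 and 7.59 in coculture. Of the other 3, Them6 had -0.22 and -1.12, Ly6e 0.92 and 0.20, and Ly6g2 0.11 and 0.79. Psca was nonetheless seen in only 46 of 91 control and 7 of 35 coculture members.

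Sprr1a lies on chromosome 3 at 92483954 to 92485881, in the epidermal differentiation complex. All 5 genes compared there of 40 within 500000 bases were higher in both libraries, and all were Sprr2 genes: Sprr2a1, Sprr2a2, Sprr2a3, Sprr2b and Sprr2f. Sprr2f, 117512 bases away, had log2 ratios of 4.45 (543 against 24.8 CPM) and 7.71 (919 against 4.39 CPM). It was seen in only 31.9% of control and 22.9% of coculture members. In coculture 1 member held 46.9% of its member UMIs, and in control 1 other barcode held 62.3% of its UMIs outside members. Around Clu (chromosome 14, 65968483 to 65981548) and Anxa1 (chromosome 19, 20373434 to 20390671), 1 of 7 and 0 of 2 compared genes were higher, and 3 and 1 lower. The higher one was Ptk2b, 171709 bases from Clu, with log2 ratios of 1.58 and 1.45. Beside 8.79% higher and 24.7% lower of all genes, these counts are too small to read. The Ly6d and Sprr1a clusters hold related genes, so reads shared between copies may be split among them.

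By a rule of likeness, the genes whose level followed the summed rule level most closely over all kept barcodes included Anxa10, S100a11, Capn2, Krt18, Anxa3, Anxa5, Krt8, Gml2 and Cldn4. Mean Spearman's rho ran from 0.46 for Anxa10 (0.57 over 540 control and 0.35 over 1037 coculture barcodes) to 0.38 for Cldn4, a tight junction claudin. Barcodes of 1 library share its depth and its many values of 0, so these coefficients describe an order only.

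Members led by different rule genes differed in other genes. Among control members of at least 5000 UMIs, enterocyte genes had a median level of 19.2 UMIs per 10000 in 15 members led by Clu (range 3.36 to 50.9) and 12.3 in 10 led by Anxa1 (5.52 to 74.5), against 69.9 in 26 led by Ly6d (2.33 to 795) and 138 in 14 led by Sprr1a (6.44 to 797). The ranges overlapped throughout. Single enterocyte genes differed in order. Apoa4 had 100.4 CPM in Clu-led, 25.6 in Anxa1-led, 3757 in Ly6d-led and 8981 in Sprr1a-led members. Alpi, intestinal alkaline phosphatase, had 54.0, 322, 765 and 464 CPM in the same order of groups, and Fabp1 40.8, 96.2, 953 and 941 CPM. Single members weighed on these levels: 1 held 53.1% of Alpi in the Clu-led, 50.9% of Fabp1 in the Sprr1a-led and 44.8% of Apoa4 in the Ly6d-led group. The fetal or regenerating list ran the other way, with medians of 203 and 282 in Clu-led and Anxa1-led members and 159 and 138 in Ly6d-led and Sprr1a-led members. Cavin3, a caveola coat protein, and Ccn2, a YAP target, were highest in Clu-led members, at 480 and 174 CPM, of which 1 member held 48.5% and 55.7%. In coculture, 17 Sprr1a-led members had medians of 217 for enterocyte and 74.9 for fetal or regenerating genes, and 10 Ly6d-led members 88.7 and 174. These classes were cut from the members' own values, hold few barcodes and were not compared by a test.

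Coculture members had lower Clu, Anxa1 and YAP/TEAD target genes than control members and higher enterocyte genes. Of 5489 genes with at least 100 UMIs over both sets of members, 132 (2.4%) were higher and 441 (8.03%) lower in coculture members, and the median log2 ratio was -0.19. Among the other barcodes 0.219% of the same genes were higher and 1.64% lower, but those groups hold far more UMIs and were thus estimated with less counting error. Clu had 1041 CPM in control members (1011 to 1071) and 3.09 in coculture members (1.13 to 6.72), a log2 ratio of -8.40 (-9.84 to -7.27), and -3.51 in the other barcodes. Anxa1 had 634 and 47.3 CPM, a ratio of -3.74, and -2.14 in the other barcodes. Ly6d had 1287 and 1277 CPM (-0.01; interval -0.08 to 0.06), against -1.93 in the other barcodes. Sprr1a had 1106 and 1653 CPM (0.58), against -0.89. The members were chosen by a minimum of the sum of these 4 genes, so the ratios describe the make-up of the sets and test nothing. With the top member for Sprr1a left out of both sets its ratio was 0.32.

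Of 13 enterocyte genes compared, 9 were higher in coculture members and none lower, with a median log2 ratio of 1.19 where the other barcodes had 0.37. Fabp1, a fatty acid carrier, had UMIs in 77 of 91 control members (0, 0.996 and 258 UMIs per 10000) and 33 of 35 coculture members (0, 5.98 and 165). Pooled, it had 635 and 3301 CPM, a log2 ratio of 2.38 (2.31 to 2.44), beside 0.66 in the other barcodes. Khk, ketohexokinase of fructose metabolism, had 2.84 beside 0.72. Of 6 Paneth genes compared 4 were higher and none lower (median 1.31, beside 0.13), but this rested on few members. The median summed Paneth level was 3.01 UMIs per 10000 in control members and 1.81 in coculture members, of which 1 reached 1396. Further genes among the highest were Gstm1, Hsd17b13, Maoa, Cbr3, Anpep, Fabp5 and Gbe1, with ratios of 2.19 to 3.41. The larger part of coculture members led by Sprr1a, whose enterocyte level was also high in control, moves with these values, and its part in them was not tested.

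Among the lowest in coculture members were Cavin3, Serpinb9b, Cwh43, Ccn2, Ecm1, Lama3, Tnip3, Pdk4, Duoxa2 and Anxa8. Cavin3 had UMIs in 30 of 91 control and 1 of 35 coculture members (226 against 0.515 CPM). Anxa8 had UMIs in 13 control and 0 coculture members, at least 16.4-fold lower at the floor of 3 UMIs (upper interval limit -3.71 on the log2 scale), and in 0 of 1002 other coculture barcodes. Lama3, the laminin-332 alpha 3 chain, had 121 and 5.66 CPM, a ratio of -4.42, and a ratio of -6.72 in the other barcodes. Of 8 YAP/TEAD targets 5 were lower and none higher (median -2.68; -1.01 in the other barcodes), and of 13 integrin, laminin and hemidesmosome genes 8 were lower (median -1.13; -0.58 in the other barcodes). Of 15 fetal or regenerating genes 5 were lower and none higher, with a median of -0.93, beside -0.98 in the other barcodes. Of 6 keratins 1 was lower, Krt23, and of 8 EGF family genes 1, Egfr, and none of either list was higher. Where 8.03% of all genes were lower and 2.4% higher, 1 call in so short a list is near the background.

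**Figure D5:**
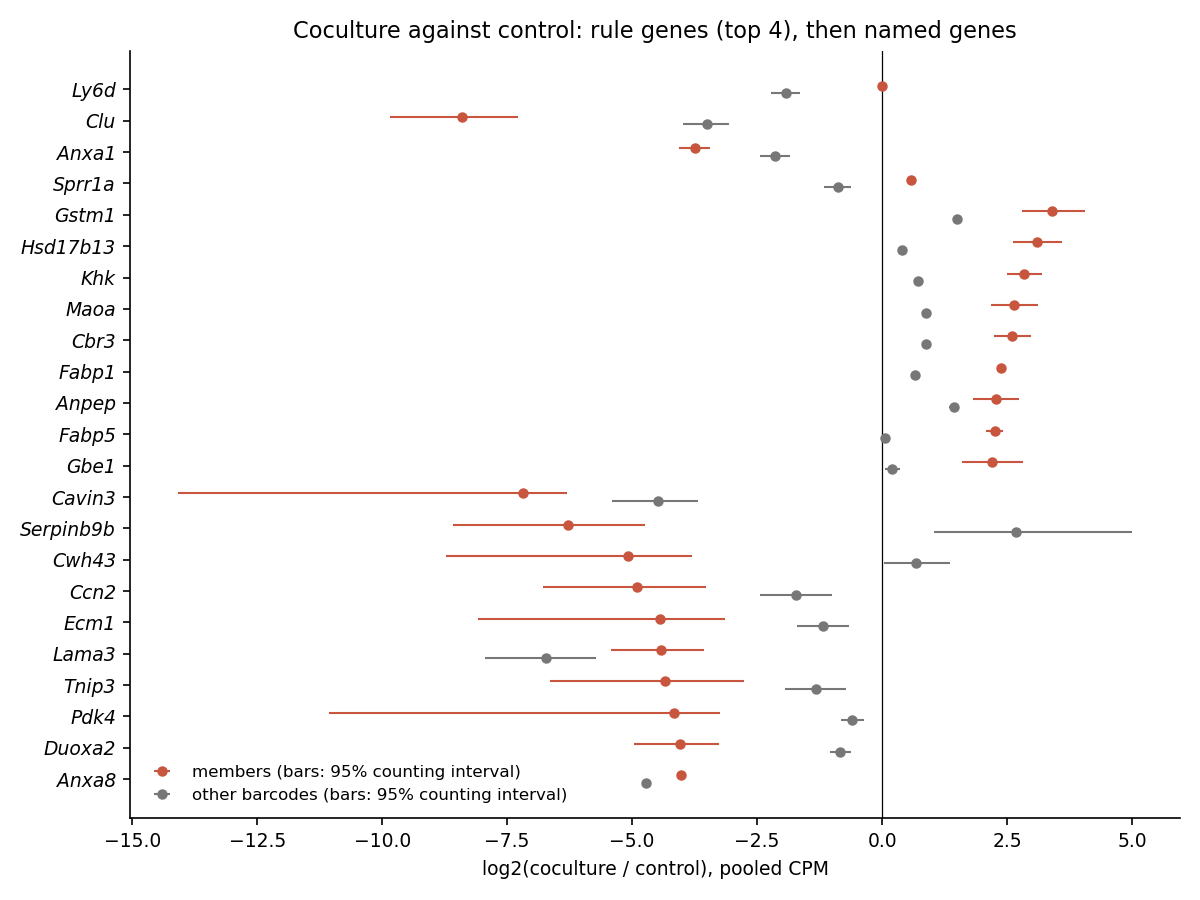
Points give the log2 ratio of coculture over control, for members and for the other barcodes, of the 4 rule genes and the named genes, with bars for 95% counting intervals. Anxa8, with 0 UMIs in all coculture barcodes, is drawn at its bound of 3 UMIs and has no bar; Clu is the lowest point for members at -8.40.

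In sorted tissue the same rule found few cells. Of 1170 kept barcodes with epithelial UMIs in the small intestinal tissue library, sorted from C57BL/6 and Lgr5-eGFP-ires-CreERT2 mice with enrichment of LGR5+ and lymphatic endothelial cells, 15 met the rule (1.28%, exact interval 0.719% to 2.11%), 6 of them on fewer than 10 UMIs. Ly6d was seen in 12 of the 15, Clu in 3, Sprr1a in 1 and Anxa1 in none. The sort sets what this library holds, so its share is given beside those of the organoids and not compared with them.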

How the data were processed

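Droplet single-cell RNA libraries of control and cocultured small intestinal organoids were analysed, with the small intestinal tissue library as a reference; large intestinal and spatial libraries were not used here. The authors deposited UMI count matrices made with Cell Ranger 6.0.1 on mm10, per the submitters' processing notes; the annotation release is not given in the sources used here. Depth was 46236011 UMIs over 818 deposited barcodes in control and 100452728 over 1233 in coculture. Members and gene lists were chosen with earlier results of these data known. Counts were pooled over the barcodes of a group and scaled to CPM; counts under 3 were set to 3 in a ratio. Intervals were exact binomial for shares and Poisson-based for ratios. The ratio intervals were checked on counts simulated from the same Poisson model. That check cannot show how they hold for UMIs clumped in single barcodes. With 1 library per condition there were no tests. Genes were named by rule: the 15 highest and 15 lowest by the smaller ratio of both libraries, and the 10 highest and 10 lowest between sets of members, where the higher group held 50 UMIs or more, in 10% or more of its barcodes and at most 50% of them in 1 barcode, with mt-, ribosomal protein, unnamed and rule genes left out; other genes named are list members. Results for some genes are not reported here. Doublets were kept, and removal of the highest Scrublet scores (scanpy 1.11.5; 2 control and 9 coculture barcodes, 1 of them a member) was an alternative. Other alternatives were the threshold, stricter barcode filters, thinning, gene filters, other CPM scalings and leaving out the top barcode of each gene. Promoter and gene tables were RefSeq GRCm38.p6, matched by symbol. Analysis used Python 3.11.15.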

Additional observations from a re-analysis of the deposited data

How the results depend on the processing

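No paired analysis was possible because each organoid condition was 1 library and no result came from a test. The lower share of members in coculture held under all 8 alternatives run. With a threshold of 2 UMIs per 10000 the shares were 22.2% and 5.40%, and with 10 they were 12.4% and 2.31% (difference -10.1 points). Requiring 10 UMIs of the rule genes gave 11.5% in control (difference -8.78), the stricter barcode filter 13.4%, and thinning 13.7%. The tissue share was 0.684% with a threshold of 10 and 0.841% with at least 3 Epcam UMIs.

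As a mean over barcodes, 537 genes were higher in members of both libraries, and 232 were higher and 821 lower in coculture members. The fetal or regenerating median was then 2.73 in control and 3.43 in coculture, and 4.11 in control with the threshold of 2. With no filter on low genes, 589 genes were higher and 1628 lower in coculture members. The goblet median in control reversed, to 0.64 with the threshold of 2 and to 0.68 as a mean over barcodes, and Defa30 in control to 0.77 with the threshold of 2; the cause was not tested. CPM without mt- and ribosomal protein genes moved the median of all genes to -0.54 in control and -0.61 in coculture, and no filter on low genes turned it to 0.081 and 0.28; the antioxidant median in coculture went from 0.13 to -0.042.

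Between sets of members, Ly6d was -0.086 with the threshold of 2, 0.076 with 10, 0.19 with the stricter filter, -0.35 as a mean over barcodes and -0.10 without the top barcode. Clu was -6.72 with the threshold of 2 and -9.46 as a mean. Anxa1 was -3.05 with the threshold of 2, -3.22 as a mean and -4.22 without the top barcode, and Sprr1a 0.51, 0.97 and 0.32. For left-out genes in control, a threshold of 2 gave 6.55 for Clu and 5.11 for Sprr1a, and means gave 3.88 for Ly6d, 2.03 for Clu, 3.58 for Anxa1 and 4.08 for Sprr1a. In coculture, a threshold of 2 gave 6.96 for Ly6d and 4.79 for Sprr1a, and means gave 4.85 for Ly6d, 1.72 for Clu, 5.39 for Anxa1 and 4.05 for Sprr1a. With a threshold of 2 the Paneth median in control was -0.55, the enterocyte median in control -0.047, and in coculture the medians were -2.57 for G2 and mitosis, -1.67 for S phase and -1.79 for stem cell genes. As a mean over barcodes, G2 and mitosis had -1.85 in control and -3.41 in coculture, S phase -2.99 in coculture, YAP/TEAD targets 1.90 and 1.47, squamous genes 1.8 and keratins 1.90 in control, EGF family genes 1.75 in coculture, p53 targets 0.78 in control, integrated stress response genes 0.91 and 1.12, and interferon response genes 2.24 in control. Of 396 other list medians under an alternative, 36, these among them, moved by 1.5-fold or more, and of 540 ratios of named genes between members and other barcodes 86 did, 44 of them as a mean over barcodes. The alternatives with at least 5000 UMIs and with no barcode filter were chosen after seeing the data. Depth limits the lower calls: the floor of 3 UMIs stands for 1.54 CPM in coculture members.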
